A study of Homo sapiens with 6 samples.

Results

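Genes of cholesterol and fatty acid synthesis, with the proteins that regulate them, were read across 6 arrays of HEK293, a transformed cell line of human embryonic kidney origin. The members were taken from a fixed list of 29 genes by the gene symbol of their transcript cluster, the set of array probes that reads 1 transcribed locus. Of the 29, 27 had a cluster that carried their symbol alone, among 33297 clusters on the array. The squalene synthase gene FDFT1 and the sterol reductase gene HSD17B7 had none, so their expression is not analysed here. The cluster of HSD17B7 is shared with its pseudogene HSD17B7P2.

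Total RNA was hybridised to Affymetrix Gene 1.0 ST arrays, 3 labelled treatment and 3 labelled control. The treatment arrays hold RNA of HEK293 cells that received what the source field calls a Neo vector. The control arrays hold RNA of HEK293 cells whose source field names a transient vector, whereas the design text describes cells transfected with the plasmid pCMV9, an empty vector, set against untreated cells, to look for mediators of an anti-HIV effect. What the control cells received is therefore unsettled. No label gives a dose, a time after transfection or whether the replicates were cultured apart. The p-values reflect array-to-array spread alone, and that spread may be technical. In limma, the test used here, it is each cluster's own spread drawn toward a value shared by all clusters.

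Cells build cholesterol from acetyl-CoA through mevalonate, isoprenoid diphosphates, squalene and lanosterol. When sterols run low in the endoplasmic reticulum membrane, the escort protein SCAP carries the SREBP transcription factors to the Golgi, where they are cut and released to switch on the genes of this pathway and of fatty acid synthesis; INSIG proteins hold SCAP back when sterols are plentiful. The pathway has a known tie to interferon: CH25H, an interferon-inducible enzyme in immune cells, makes 25-hydroxycholesterol, an oxysterol that blocks SREBP processing and the entry of many enveloped viruses.

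The promoters of 4 members are shown here because they carry the largest differences in either direction or the clearest sterol-response letters. FDPS and CH25H had the lowest p of all members, STARD4 was the only other member with all treatment arrays above all control arrays, and SREBF2 encodes the sterol-regulated factor itself. Each sequence is the RefSeq window of 250 bases before to 50 after the gene's start (GRCh38.p14), 5′ to 3′ on the gene's strand. Capitals mark TCACNCNAC, a loose form of the sterol response element, CCAAT, the site of the SREBP partner NF-Y, and GGCGGG, a GC box, on either strand.
FDPS, chr1:155308616-155308915 (plus strand): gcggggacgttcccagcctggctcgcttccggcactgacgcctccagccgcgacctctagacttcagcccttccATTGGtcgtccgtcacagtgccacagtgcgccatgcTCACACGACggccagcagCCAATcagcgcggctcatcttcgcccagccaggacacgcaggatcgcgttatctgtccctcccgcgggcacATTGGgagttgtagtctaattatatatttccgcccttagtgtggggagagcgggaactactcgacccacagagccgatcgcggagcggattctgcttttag
STARD4, chr5:111512486-111512785 (minus strand): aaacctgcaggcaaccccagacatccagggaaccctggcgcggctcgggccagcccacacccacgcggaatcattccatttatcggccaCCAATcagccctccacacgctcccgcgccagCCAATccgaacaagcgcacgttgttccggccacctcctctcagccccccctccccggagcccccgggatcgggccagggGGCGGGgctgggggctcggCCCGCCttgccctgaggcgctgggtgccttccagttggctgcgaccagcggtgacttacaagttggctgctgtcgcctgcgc
CH25H, chr10:89207268-89207567 (minus strand): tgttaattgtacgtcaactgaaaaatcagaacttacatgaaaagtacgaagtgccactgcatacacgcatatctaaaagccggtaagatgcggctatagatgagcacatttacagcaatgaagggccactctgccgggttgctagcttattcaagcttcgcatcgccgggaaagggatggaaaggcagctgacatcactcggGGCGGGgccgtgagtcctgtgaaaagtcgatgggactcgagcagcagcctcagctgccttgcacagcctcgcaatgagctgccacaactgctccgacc
SREBF2, chr22:41832855-41833154 (plus strand): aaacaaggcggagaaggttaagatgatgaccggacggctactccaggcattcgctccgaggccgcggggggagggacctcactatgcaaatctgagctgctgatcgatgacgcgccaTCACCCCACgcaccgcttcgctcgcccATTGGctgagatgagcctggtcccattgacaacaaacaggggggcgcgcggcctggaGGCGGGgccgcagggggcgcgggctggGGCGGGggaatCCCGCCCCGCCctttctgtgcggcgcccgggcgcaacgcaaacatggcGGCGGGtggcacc

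Windows were found for 25 of the 29 members, among them HSD17B7, which has no cluster of its own. CCAAT or its reverse complement stood in 16 of the 25 windows, against 35.7% of the 27305 RefSeq windows of the same length, and the GC box in 19, against 44.7%. The loose sterol element stood in 4 member windows (FDPS, HSD17B7, FADS2 and SREBF2), against 2.57% of all windows, and its stricter form TCACNCCAC, whose letters the loose form includes, in that of SREBF2 alone, against 1.15%. The interferon-response letters, GAAA and a second GAAA with any 2 bases between them, stood in 0 of the 25 windows, that of CH25H included, against 3.65% of all windows. These letters were chosen from 11 motifs after the windows had been read, and a match is a description and not a site.

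No member passed the test between the groups. Of the 27 members, 0 rose and 0 fell (limma, adjusted p under 0.05 over all clusters), where 0.357% of all clusters rose, 0.0150% fell and 0.372% thus passed in all, and the members' adjusted p lay between 0.68 and 0.993. At an unadjusted p under 0.05 stood 2 members, CH25H higher and FDPS lower in treatment arrays, against 7.30% of all clusters, 5.01% higher and 2.29% lower. Of the 27 log2 changes, 9 were positive and 18 negative (66.7%). Negative changes made up 48.2% over all clusters and 51.0% over clusters with 1 symbol. The members' median was -0.079, beside 0.012 over all clusters and -0.0070 over clusters with 1 symbol. Each change is the treatment mean minus the control mean of log2(intensity + 16), a scale that makes the change of a dim cluster look smaller than it is. In bulk RNA a lower value may mean fewer cells that express a gene or less RNA per cell, which cannot be told apart.

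The precision of this fit bounds what the test could show. Standard errors of the members' log2 changes lay between 0.192 and 0.232, so each 95% interval, taken alone, reached 0.41 to 0.50 to either side of its estimate. Because limma draws each variance toward a value shared by all clusters, these errors do not measure the members' own spread alone. The median SD within a group was 0.182 in treatment and 0.121 in control arrays for members, against 0.267 and 0.215 over all clusters. The lowest bound of any member was 0.553-fold, that of FDPS, and the highest 1.85-fold, that of CH25H. The smallest change that passed the test among all clusters was 2.08-fold. These folds are on the log2(intensity + 16) scale, on which no member's interval reached that size. For CH25H, a dim cluster, the bound depends on that scale: without the offset its interval reached 2.46-fold, a log2 change of 1.30. Without the offset the smallest change that passed was also larger, a log2 change of 1.90, and the intervals of 0 members reached it.

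**Figure D1:**
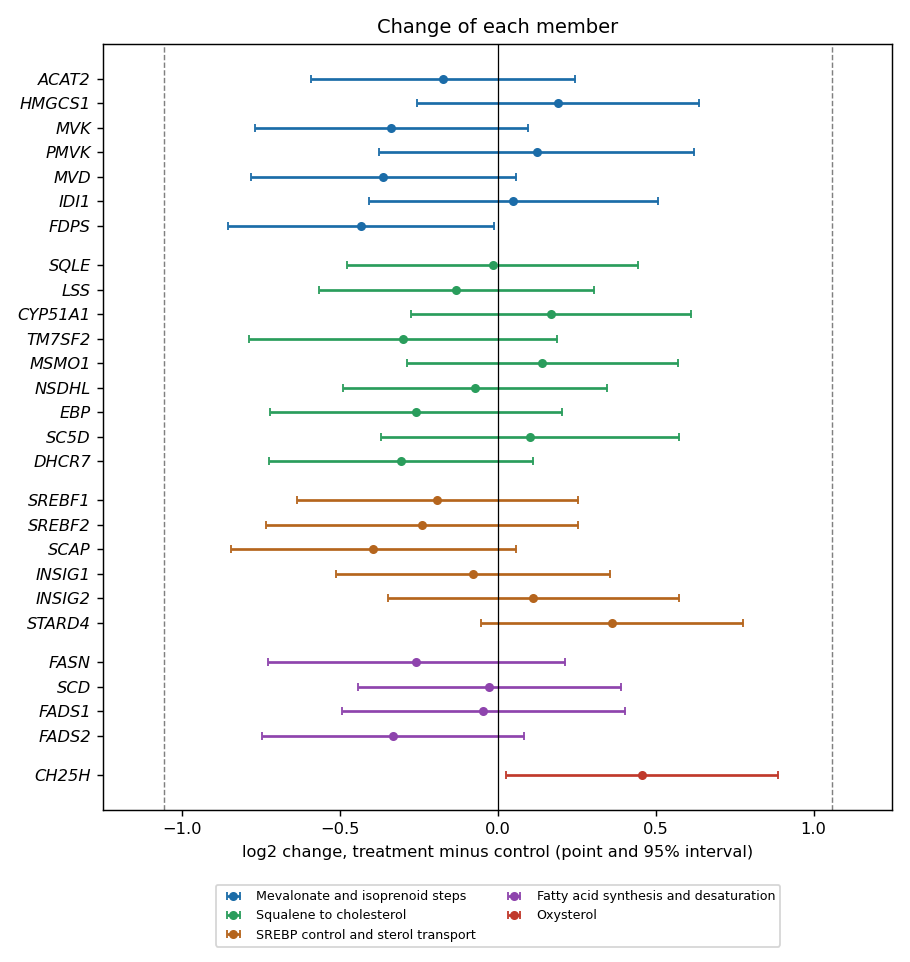
Log2 change of intensity, treatment minus control, for each of the 27 members (point) with its 95% interval from limma (bar), coloured by role; the dashed lines mark the smallest change that passed the test among all clusters, 1.06 in either direction. On this scale all intervals end inside the dashed lines, and those of FDPS and CH25H alone leave out 0.

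In 8 of the 27 members the treatment and control arrays did not overlap, 2 with treatment higher (CH25H and STARD4) and 6 with treatment lower (MVK, MVD, FDPS, DHCR7, SCAP and FADS2). Over all clusters the groups did not overlap in 14.6%, with treatment higher in 7.47% and lower in 7.10%. None of the 8 passed limma over all clusters.

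**Figure D2:**
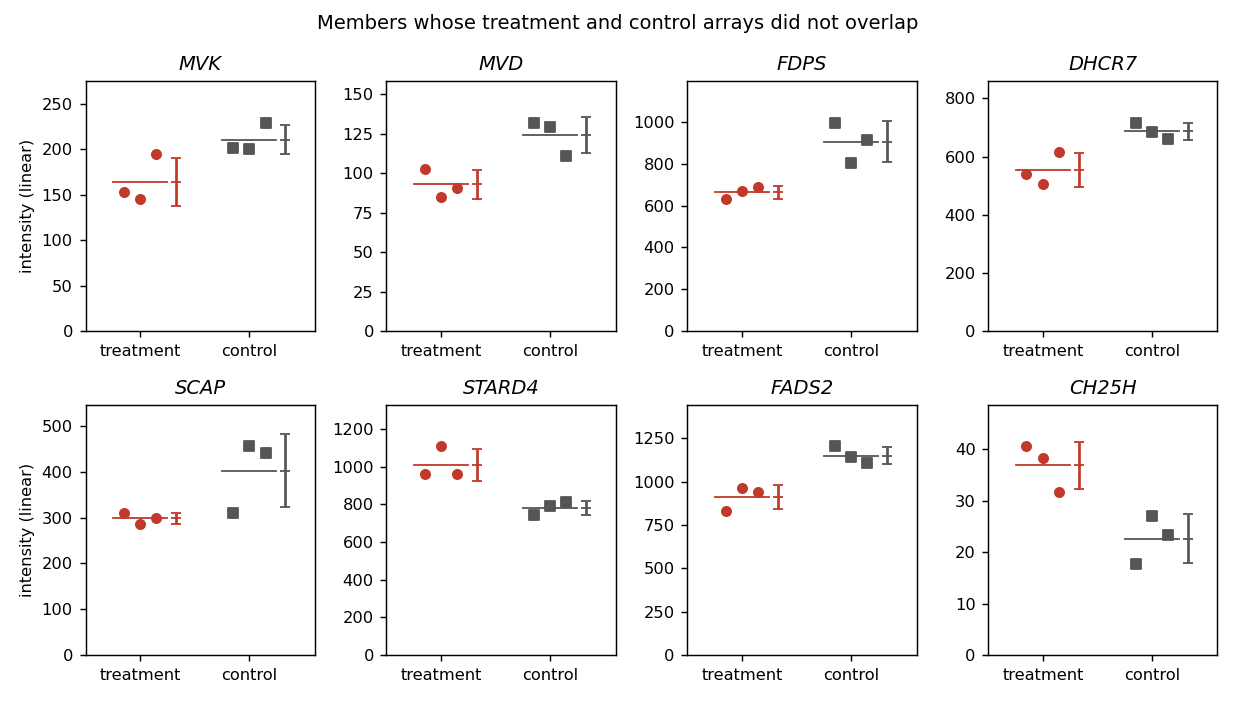
Linear intensity of the 8 members whose groups did not overlap, with treatment arrays (circles) left of control arrays (squares), the group mean (line) and the SD over 3 arrays (bar). FDPS lies between 631 and 689.9 in treatment arrays and between 802 and 996 in control arrays, while in SCAP the highest treatment array (309.6) and the lowest control array (311) nearly touch.

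The first steps of the pathway turn acetyl-CoA into mevalonate and then into farnesyl diphosphate, and 0 of these 7 genes passed. Their median log2 change was -0.17. FDPS, which makes farnesyl diphosphate, the branch point to sterols and to prenylated proteins, gave 631, 668 and 689.9 in treatment arrays, against 996, 802 and 916 in control arrays. Every treatment array was lower than every control array. The means were 663 ± 29.7 in treatment and 905 ± 97.7 in control arrays (SD, n = 3 each), a log2 change of -0.43 ± 0.195 (SE) with an adjusted p of 0.68 by limma. FDPS has pseudogenes, and clusters that the annotation gives to both FDPS and FDPSP2 were left out.

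MVK and MVD, which phosphorylate mevalonate and decarboxylate its diphosphate, were lower in treatment arrays by amounts like that of FDPS, also short of the threshold. MVK gave 153, 145 and 194 in treatment arrays, against 201, 201 and 229 in control arrays, a log2 change of -0.34 ± 0.201 (SE). MVD gave 103, 85.1 and 90.8 in treatment arrays, against 132, 129 and 111 in control arrays, a change of -0.36 ± 0.196. In MVK it was treatment replicate 3 that came closest to the control arrays, whereas in MVD it was treatment replicate 1.

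The other members of these steps went both ways. HMGCS1, the synthase that joins acetyl-CoA to acetoacetyl-CoA, gave 2236, 2088 and 1552 in treatment arrays, against 1705, 1634 and 1741 in control arrays. Treatment replicates 1 and 2 lay above all control arrays and replicate 3 below them, so the change of 0.19 had an interval from -0.26 to 0.64. The isomerase gene IDI1 had the same split, with 1781, 1892 and 1316 in treatment arrays, against 1410, 1673 and 1698 in control arrays (change 0.049). PMVK, the kinase after MVK, was highest in treatment replicate 3 and lowest in treatment replicate 1, with 155, 199 and 289 in treatment arrays, against 189, 204 and 176 in control arrays (change 0.12). ACAT2, the cytosolic thiolase that supplies acetoacetyl-CoA, gave a change of -0.17 with an interval from -0.59 to 0.24.

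From squalene to cholesterol 9 genes were measured, and 0 passed, with a median log2 change of -0.072. DHCR7, the reductase that makes cholesterol from its last precursor, was the only one of them whose groups did not overlap. It gave 539.8, 505 and 617 in treatment arrays, against 717, 685 and 659.96 in control arrays, a change of -0.31 ± 0.194 (SE; limma, adjusted p = 0.742). All treatment arrays were thus below all control arrays, by a margin smaller than the spread among the treatment arrays.

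Treatment replicate 3 lay across the control mean from treatment replicates 1 and 2 in 7 of these 9 genes. TM7SF2, a sterol reductase, gave 275, 273 and 445 in treatment arrays, against 405, 433 and 366 in control arrays. EBP, the isomerase that shifts a ring double bond, gave 572, 686 and 888 in treatment arrays, against 875, 888 and 777 in control arrays. Both genes were low in treatment replicates 1 and 2 and at control level or above in replicate 3. SC5D, the desaturase before DHCR7, ran the other way, with 1535, 1301 and 946 in treatment arrays, against 1171, 1090 and 1199 in control arrays. CYP51A1, the lanosterol demethylase, did likewise, with 1473, 1370 and 1026 in treatment arrays, against 1115, 1147 and 1136 in control arrays. A second cluster of CYP51A1, of lower intensity, gave 512, 526 and 536 in treatment arrays, against 558, 497 and 429.8 in control arrays, without that split (change 0.09, against 0.17 in the first cluster).

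The remaining genes between squalene and cholesterol had small changes whose intervals held 0. SQLE, the epoxidase and a control point of the pathway, gave 961, 825 and 669 in treatment arrays, against 961, 775 and 737 in control arrays, a change of -0.016 with an interval from -0.48 to 0.45. LSS, which closes the sterol rings, had a change of -0.13, MSMO1, the methylsterol oxidase, one of 0.14, and NSDHL, a dehydrogenase that acts beside it, one of -0.072. Over all 27 members, treatment replicate 3 stood on the other side of the control mean from both other treatment arrays in 13 genes. That was 48.1%, against 31.4% of all clusters, 35.0% of clusters with 1 symbol and 42.3% of the 78 related genes read below.

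**Figure D3:**
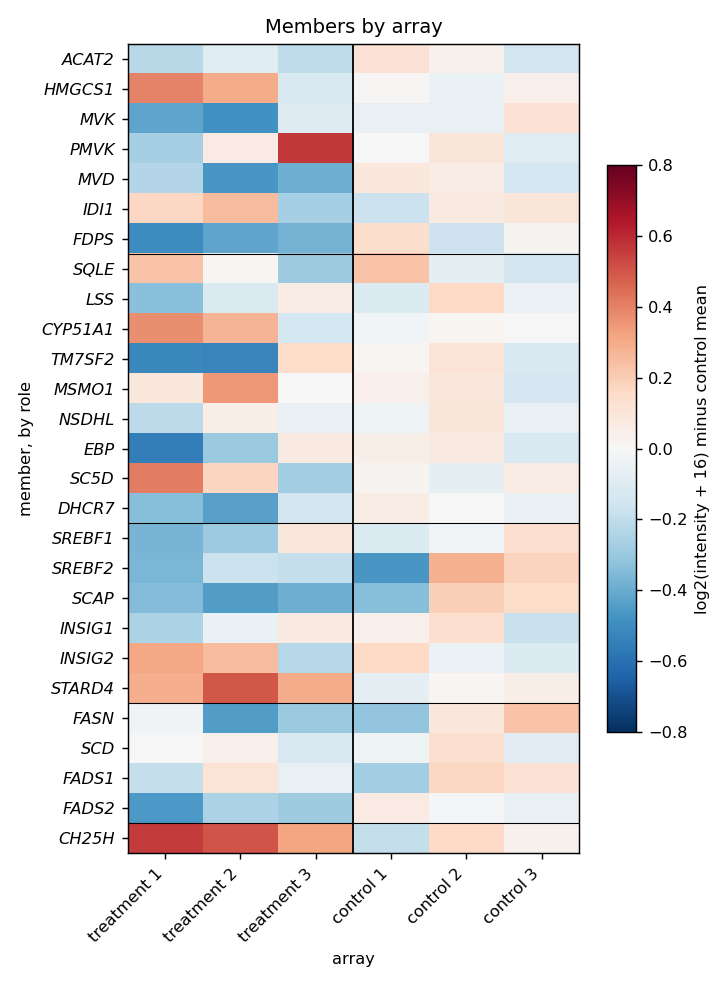
Log2(intensity + 16) of each member (rows, by role) on each array (columns, treatment left of control) minus that member's mean over the control arrays, from blue (lower) to red (higher). Treatment replicate 3 departs from treatment replicates 1 and 2 in rows such as HMGCS1, TM7SF2, EBP and SC5D, while CH25H, STARD4 and FDPS keep 1 colour across the 3 treatment arrays.

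The regulators and the sterol carrier made up 6 members, and 0 passed, with a median log2 change of -0.14. SREBF1 and SREBF2 encode the SREBP factors. SREBF2 gave 511, 587 and 579 in treatment arrays, against 476, 810.1 and 753 in control arrays (change -0.24, interval from -0.74 to 0.25). Control replicate 1 was the lowest of the 6 arrays and the other control arrays were the highest, so the groups overlapped through 1 array. SREBF1 gave 186, 198 and 262 in treatment arrays, against 227, 242 and 271 in control arrays (change -0.19).

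SCAP, the sterol-sensing escort of SREBP, had the same low control array. It gave 309.6, 287 and 299.7 in treatment arrays, against 311, 456 and 442 in control arrays, a change of -0.39 ± 0.21 (SE; limma, adjusted p = 0.707). Without control replicate 1 the changes of SCAP and SREBF2 were -0.56 and -0.47, and these were then the only 2 members at an unadjusted p under 0.05, against 5.68% of all clusters in that fit. The groups of SCAP did not overlap with that array in, but only by the gap between 309.6 and 311.

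The INSIG proteins, which hold SCAP in the endoplasmic reticulum, differed in direction. INSIG1, itself a sensitive SREBP target, gave 1228, 1415 and 1547 in treatment arrays, against 1514, 1614 and 1298 in control arrays (change -0.079, interval from -0.51 to 0.36). INSIG2 gave 671, 645 and 457 in treatment arrays, against 604, 519.6 and 497 in control arrays (change 0.11, interval from -0.35 to 0.57). Both intervals held 0, and in both genes the treatment arrays spanned the control mean.

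STARD4, a cytosolic carrier of cholesterol, had the largest positive change after CH25H. It gave 960.3, 1108 and 963 in treatment arrays, against 742, 789.7 and 812 in control arrays. The means were 1010.4 ± 84.7 in treatment and 781 ± 35.4 in control arrays (SD, n = 3 each), and the log2 change was 0.36 ± 0.193 (SE), with an adjusted p of 0.707 by limma. All 3 treatment arrays, replicate 3 included, lay above the control arrays.

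Fatty acid synthesis was represented by 4 genes, of which 0 passed; all 4 changes were negative, with a median of -0.15. FADS2, a desaturase of polyunsaturated fatty acids, gave 831, 963 and 942 in treatment arrays, against 1203, 1144 and 1105 in control arrays (change -0.33 ± 0.192, SE; limma, adjusted p = 0.72). Its groups did not overlap. FADS1, the neighbouring desaturase gene on chromosome 11, gave 739.6, 914 and 812 in treatment arrays, against 696, 949 and 917 in control arrays, a change of -0.046 with an interval from -0.49 to 0.40. Whether FADS1 and FADS2 differ in their change was not tested.

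FASN, the fatty acid synthase, gave 1305, 976 and 1081 in treatment arrays, against 1067, 1418 and 1567 in control arrays (change -0.26, interval from -0.73 to 0.21). SCD, which makes monounsaturated fatty acids, gave 854, 878 and 779 in treatment arrays, against 829.8, 934 and 800.2 in control arrays (change -0.028, interval from -0.44 to 0.39). Both genes overlapped between the groups, and SCD had 1 of the smallest changes among the members.

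CH25H, the cholesterol hydroxylase tied to interferon, was the member with the largest positive change and the lowest p. It gave 40.6, 38.4 and 31.7 in treatment arrays, against 17.6, 27.0 and 23.3 in control arrays. Every treatment array was higher than every control array. The means were 36.9 ± 4.59 in treatment and 22.6 ± 4.71 in control arrays (SD, n = 3 each), and the log2 change was 0.46 ± 0.201 (SE), or 1.37-fold on the offset scale, with an adjusted p of 0.68 by limma. CH25H was also dim: the 360 clusters of olfactory receptors, sensory genes used here as a guide to background, had a median mean intensity of 15.1 and a 95th percentile of 56.7, and CH25H was the only member below that percentile. The olfactory receptor clusters themselves had a median log2 change of 0.12, and 46 of the 360 had all treatment arrays above all control arrays. The part of this shift of dim clusters in the value of CH25H was not tested.

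**Figure D4:**
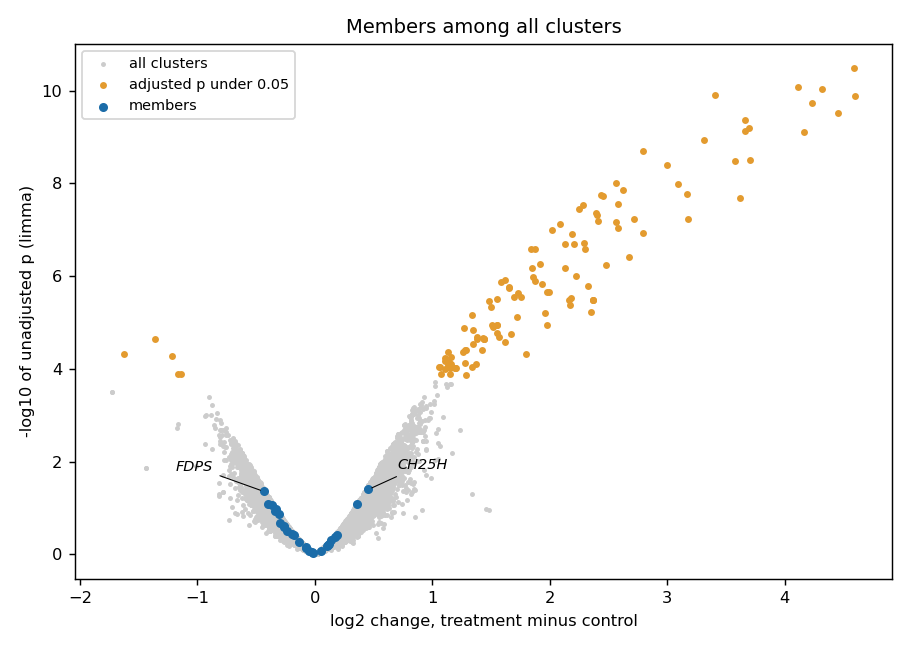
Log2 change, treatment minus control (horizontal), against -log10 of limma's unadjusted p (vertical) for all 33297 clusters (grey), the 124 that passed (orange) and the 27 members (blue). All members lie in the dense foot of the plot, with changes between -0.43 (FDPS) and 0.46 (CH25H), away from the passing clusters.

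Treatment replicate 3 stood farthest from the other arrays over all clusters (mean Pearson's r of 0.963 with the others on the log2 scale; the next lowest mean was 0.972), and single arrays moved the members' count. Without treatment replicate 3, 0 of the 27 members passed (limma, lowest adjusted p = 0.444) and 5 had an unadjusted p under 0.05, CH25H higher and MVK, FDPS, TM7SF2 and EBP lower, against 10.2% of all clusters in that fit. TM7SF2 then had a change of -0.52 and EBP one of -0.42, against -0.30 and -0.26 with all arrays. The count at an unadjusted p under 0.05 was 0 without treatment replicate 1 (8.59% of all clusters in that fit), without treatment replicate 2 (4.92%) and without control replicate 3 (5.57%). The median change over the members was -0.15 without treatment replicate 3, beside 0.044 over all clusters.

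Per array, the median of the 27 members relative to their control means was -0.22, -0.053 and -0.13 in treatment replicates 1, 2 and 3, against -0.0017, 0.070 and -0.049 in control replicates 1, 2 and 3. Over all clusters the same medians were 0.057, 0.0075 and -0.049 in treatment and -0.036, -0.0033 and 0.037 in control arrays. Relative to these, the members' medians were -0.28, -0.061 and -0.078 in treatment and 0.034, 0.073 and -0.087 in control arrays. The treatment arrays, all below the control arrays before this step, then overlapped with them, since control replicate 3 fell below treatment replicates 2 and 3. The median SD of a member within its group was 0.182 in treatment and 0.121 in control arrays on the log2 scale, and 18 of 27 members varied more among treatment arrays, against 60.03% of all clusters.

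Other genes of lipid synthesis and sterol handling, in 5 further lists with 78 measured genes of 90, held 0 genes that rose and 0 that fell. At an unadjusted p under 0.05 stood 4 higher and 1 lower, beside the 7.30% of all clusters given above. The list for fatty acid synthesis and elongation had 0 of 25 at that level and a median log2 change of 0.0022; its lowest p belonged to MECR, a mitochondrial reductase (-0.45 ± 0.214), and SCD5, a second stearoyl-CoA desaturase (-0.29 ± 0.205). Among 11 genes of SREBP cleavage and protein turnover, 0 stood at that level and the median was -0.093. MBTPS1, the first protease to cut SREBP, gave 740.5, 813 and 738 in treatment arrays, against 908, 949.96 and 929.5 in control arrays (-0.28 ± 0.19), and AUP1, a cofactor of sterol-driven degradation, a change of -0.29 ± 0.197. MBTPS1 was lower in all 3 treatment arrays than in any control array, without passing.

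Of 11 genes of the LXR receptors and their targets, which include exporters of sterol, 0 passed; 7 changes were negative and the median was -0.041. At the lowest p stood 2 genes with an unadjusted p under 0.05, both transporters of cholesterol out of the cell and both higher in treatment arrays. ABCG1 gave 55.7, 58.4 and 97.2 in treatment arrays, against 35.2, 40.3 and 42.2 in control arrays (0.62 ± 0.223, SE; limma, adjusted p = 0.614). ABCA1 gave 37.7, 25.5 and 66.6 in treatment arrays, against 22.7, 27.8 and 12.02 in control arrays (0.65 ± 0.267, adjusted p = 0.67). The groups of ABCA1 overlapped. Treatment replicate 3 was the highest array in both genes, and without it the changes were 0.41 and 0.38.

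Oxysterol and steroid metabolism held 18 measured genes with a median of 0.020, and 0 passed. At an unadjusted p under 0.05 stood 2, both higher in treatment arrays, against 7.30% of all clusters. These were STARD5, a sterol carrier (0.60 ± 0.204), and CYP11A1, the enzyme that opens steroid hormone synthesis (0.56 ± 0.203). Both were dim, with control means of 32.9 and 30.1, under the 95th percentile of the olfactory receptors, as ABCG1 and ABCA1 were in control arrays. Of 13 isoprenoid and related genes, 1 had an unadjusted p under 0.05, PDSS2, which builds the tail of coenzyme Q (-0.47 ± 0.209); IDI2, a second isomerase, had the next lowest p (-0.35 ± 0.244), and the median was -0.050. IDI2 was dim, with means of 10.4 in treatment and 17.4 in control arrays, close to the olfactory receptor median of 15.1.

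Median intensity per array lay between 77.2 and 84.2. All 7 HEK293 markers read here (PAX2, LHX1, VIM, KRT8, KRT18, NEFM and NEFL) had mean intensities above the 95th percentile of the olfactory receptors. Their summed intensity was 6383 to 6773 in treatment and 7124 to 7443 in control arrays. Each treatment array was thus below every control array. Of the 7 log2 changes 6 were negative, with a median of -0.11. By limma 0 of the 7 passed, with PAX2 alone at an unadjusted p under 0.05 (log2 change 0.76). Of the leukocyte markers 3 of 6 measured were above that percentile, of fibroblast markers 2 of 6, of hepatocyte markers 3 of 5 and of adipocyte markers 1 of 5. Their summed intensity overlapped between the groups, at 449.7 to 638 in treatment and 427 to 569.7 in control arrays for leukocytes, 453 to 498 and 463 to 644 for fibroblasts, 437 to 650.1 and 413 to 584 for hepatocytes, and 264 to 374 and 244 to 369 for adipocytes. Above the 95th percentile of the olfactory receptors were CD14, CD79A and NKG7 among leukocyte markers, and COL1A1 and COL1A2 among fibroblast markers. For hepatocytes these were ALB, APOA1 and APOC3, and for adipocytes PLIN1. The other measured markers of these cell types, PTPRC and FABP4 among them, lay below that percentile.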

How the data were processed

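The deposited table holds a linear intensity for every transcript cluster on every array, judged linear from its range. Partek software is named in the submitters' processing notes, while the background correction, normalization and probe summary used by the authors were not stated in any source. Arrays were Affymetrix Gene 1.0 ST, per the labels' protocols, and sample titles gave the groups, 3 treatment and 3 control arrays, a number that limits the precision. Symbols come from the platform's annotation table: 19460 clusters had a single symbol, 1754 had several and 12083 had none. The brightest cluster stood for a gene with more than 1. After adding 16, log2 values were fitted with limma 3.58.1 in R 4.3.3 (lmFit and eBayes, two-sided) and p was adjusted by Benjamini-Hochberg across the 33297 clusters, with a threshold of 0.05; "rose" and "fell" mean past it. The code was tested on simulated data. Members, role groups, further lists and the offset were chosen with earlier results of these data known. Named genes are all measured members and, of each further list, the 2 with the lowest p, beside the cell type markers. Alternatives were the replicate number as a block, other offsets, 2 other scalings, a filter on dim clusters, an intensity trend, averaged clusters per gene, and each array left out in turn. Promoter windows are from RefSeq (GRCh38.p14).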

Additional observations from a re-analysis of the deposited data

How the results depend on the processing

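Under all 15 alternatives 0 of the measured members passed, with a lowest adjusted p of 0.444, and 0 genes of the further lists passed. The median change of the members stayed negative, from -0.15 without treatment replicate 3 to -0.048 with quantile normalization. The count of all clusters that passed was 40 on a plain log2 scale and 58 after an offset of 1, against 124, and ran from 69 (without control replicate 1) to 129 (without treatment replicate 1); it was 82 without treatment replicate 2. The members at an unadjusted p under 0.05, 2 with all arrays, numbered 7 with an offset of 50 (8.37% of all clusters in that fit), 1 with an offset of 1 (7.51%), with median centring (7.29%) or with no clusters below the median intensity (which removed CH25H; 6.60%), and 0 with quantile normalization (6.39%); leaving out single arrays gave 0 to 5. With the replicate number as a block the count was also 0, against 4.71% of all clusters. Deviations of same-numbered arrays from their group means correlated at -0.17, 0.084 and -0.36. These were not compared with differently numbered arrays, so they cannot decide whether the numbers pair the arrays. The block left 105 clusters past the threshold. Of 404 member values under the alternatives 389 kept their sign and 15 changed it. SQLE was 0.0072 with quantile normalization and IDI1 was -0.0071 with median centring. With single arrays left out, IDI1 ran from -0.052 to 0.21, SQLE from -0.14 to 0.12, SC5D from -0.054 to 0.29, PMVK from -0.10 to 0.32, INSIG1 from -0.17 to 0.010, FADS1 from -0.18 to 0.035 and SCD from -0.073 to 0.036. The cause of these shifts was not tested. FDPS ran from -0.52 to -0.36 and CH25H from 0.36 to 0.54 with single arrays left out. The offset moved CH25H further, to 0.72 without an offset, 0.69 with an offset of 1 and 0.26 with an offset of 50, against 0.46. Dim signal limits the value of CH25H.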
